A study of Mus musculus with 13 samples.

Results

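Transcripts of cholesterol and fatty acid synthesis were followed through 4 h of tamoxifen in cultured primary keratinocytes of the mouse. These epidermal cells carried DNp63alpha, a p63 isoform without the transactivating amino terminus, joined to an estrogen receptor domain that keeps it inactive until tamoxifen binds. The genes were the 37 symbols of a fixed list, covering the enzymes of both pathways, the SREBP regulators, a sterol transfer protein and the lipins. Of these, 35 had at least 1 probe set annotated to that gene alone among 12394 genes on the arrays, and Acat2 and Insig1 had none, so that they enter only the promoter description below and have no level here. Where a gene had several probe sets, the one brightest on average over the 13 arrays was used. 33 genes were bright enough to be tested, and Acss2 and Acaca were not.

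Cells build cholesterol from acetyl-CoA through mevalonate, isoprenoid diphosphates, squalene and lanosterol, and they build fatty acids from the same acetyl-CoA through malonyl-CoA. The transcription factors encoded by Srebf1 and Srebf2, the SREBPs, are held in the endoplasmic reticulum by the sterol sensor SCAP and the INSIG proteins and are released when sterols are scarce, after which they activate most genes of these pathways. In the epidermis, cholesterol and long-chain fatty acids are building blocks of the lipid layers of the water barrier.

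Untreated cells gave 1 array, and a further 12 arrays, 1 per time, covered 20 to 240 min after tamoxifen in steps of 20 min. All cultures, the untreated one included, had been infected with a retrovirus carrying the fusion. The labels give no mouse strain, age or tamoxifen dose. Cells without the fusion and a course without tamoxifen were not analysed here, so tamoxifen, the fusion protein and elapsed time cannot be told apart. With no replicate at any time, the yardstick for a change was how far the arrays lay from a fitted line or from each other within 4 neighbouring times, and whether each array had its own culture is not stated. P-values therefore measure only the spread between these arrays.

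Array medians lay between 237.4 and 251.5 intensity units. Of 8 keratinocyte markers 7 were on the arrays, and Krt14, Krt5, Col17a1, Itgb4, Itga6 and Trp63 ranked from percentile 84.9 to 100 of all genes by mean level, while Krt15 ranked at percentile 23.6. In these RNA extracts of whole cultures, fewer cells of a type and less RNA per cell cannot be told apart. Levels below are intensities on a linear scale, and changes are differences of log2(intensity + 16), which understate the change of dim genes. The early window is the 4 arrays from 20 to 80 min and the late window the 4 from 180 to 240 min.

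Promoter letters were read for 30 of the 37 genes from RefSeq windows of build GRCm38.p6 that run from 250 bases before to 50 bases after each start site. The box CCAAT, which binds NF-Y, a usual partner of SREBP, was searched on both strands. It stood in a window of 15 of 16 cholesterol enzyme genes (93.8%), of 24 of all 30 genes (80.0%) and of 42.8% of the 6066 genes tested on the arrays that had a window. The GC box GGGCGG, on either strand, stood in 14 of the 16 (87.5%) and in 71.6% of those 6066 genes. TCACNCCAC, the core of the sterol regulatory element, stood on either strand in the window of Hmgcs1, in none of the other members' windows and in 1.4% of the 6066 genes. Letters in a window are a description and not evidence of binding. The 180 bases just before the start site are shown for 4 cholesterol synthesis genes and for Acly, which rose, with complete copies of these 3 motifs in capitals on either strand.
Hmgcs1 (chr13:119690171-119690350, + strand): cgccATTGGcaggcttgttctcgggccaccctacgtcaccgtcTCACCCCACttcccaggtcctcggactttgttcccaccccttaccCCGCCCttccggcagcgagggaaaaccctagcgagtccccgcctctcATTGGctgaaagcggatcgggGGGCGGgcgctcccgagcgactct
Idi1 (chr13:8885426-8885605, + strand): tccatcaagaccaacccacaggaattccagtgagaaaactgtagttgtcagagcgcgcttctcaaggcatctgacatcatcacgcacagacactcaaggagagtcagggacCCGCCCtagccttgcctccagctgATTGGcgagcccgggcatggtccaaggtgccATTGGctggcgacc
Msmo1 (chr8:64733579-64733758, - strand): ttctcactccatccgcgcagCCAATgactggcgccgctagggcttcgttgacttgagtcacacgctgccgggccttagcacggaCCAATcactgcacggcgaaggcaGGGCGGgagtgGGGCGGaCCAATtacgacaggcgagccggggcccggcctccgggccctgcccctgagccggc
Cyp51 (chr5:4104698-4104877, - strand): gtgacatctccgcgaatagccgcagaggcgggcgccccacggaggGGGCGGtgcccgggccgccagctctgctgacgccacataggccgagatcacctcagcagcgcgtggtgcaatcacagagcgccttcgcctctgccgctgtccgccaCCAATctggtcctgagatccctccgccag
Acly (chr11:100528001-100528180, - strand): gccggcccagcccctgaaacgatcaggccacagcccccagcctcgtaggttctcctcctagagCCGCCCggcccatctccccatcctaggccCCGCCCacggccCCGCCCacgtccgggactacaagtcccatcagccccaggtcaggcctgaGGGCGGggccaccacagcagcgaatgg
CCAAT or its complement occurs in the printed stretch 3 times in Msmo1, 2 times in Hmgcs1 and Idi1, 1 time in Cyp51 and 0 times in Acly, whose only copy in the searched window lies past the start site and so outside the stretch shown. The GC box occurs 4 times in Acly.

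Across the 4 h, 8 of 18 cholesterol enzyme transcripts fell, mostly by modest amounts, and 2 (Mvk and Ebp) rose. Of 8 fatty acid enzyme genes, Acly, Fads1 and Fads2 rose and Scd1, Scd2 and Elovl1 fell. The regulators Srebf1 and Scap rose, and Lpin2 fell. Of the 33 tested genes 12 fell (36.4%) and 7 rose (21.2%) along a straight line of time, 19 in all, against 39.9% of all 7436 tested genes, with 17.6% falling and 22.3% rising (limma, adjusted p at most 0.05). The share that rose was near that of all genes. The median change was -0.037 per hour among the 33 genes and 0.0049 per hour among all tested genes on the log2 scale. Changes were small: 16 of the 19 called genes changed by less than 1.5-fold, and the largest change was 1.98-fold. The calls of 13 of the 19 were kept whichever array was left out.

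**Figure D1:**
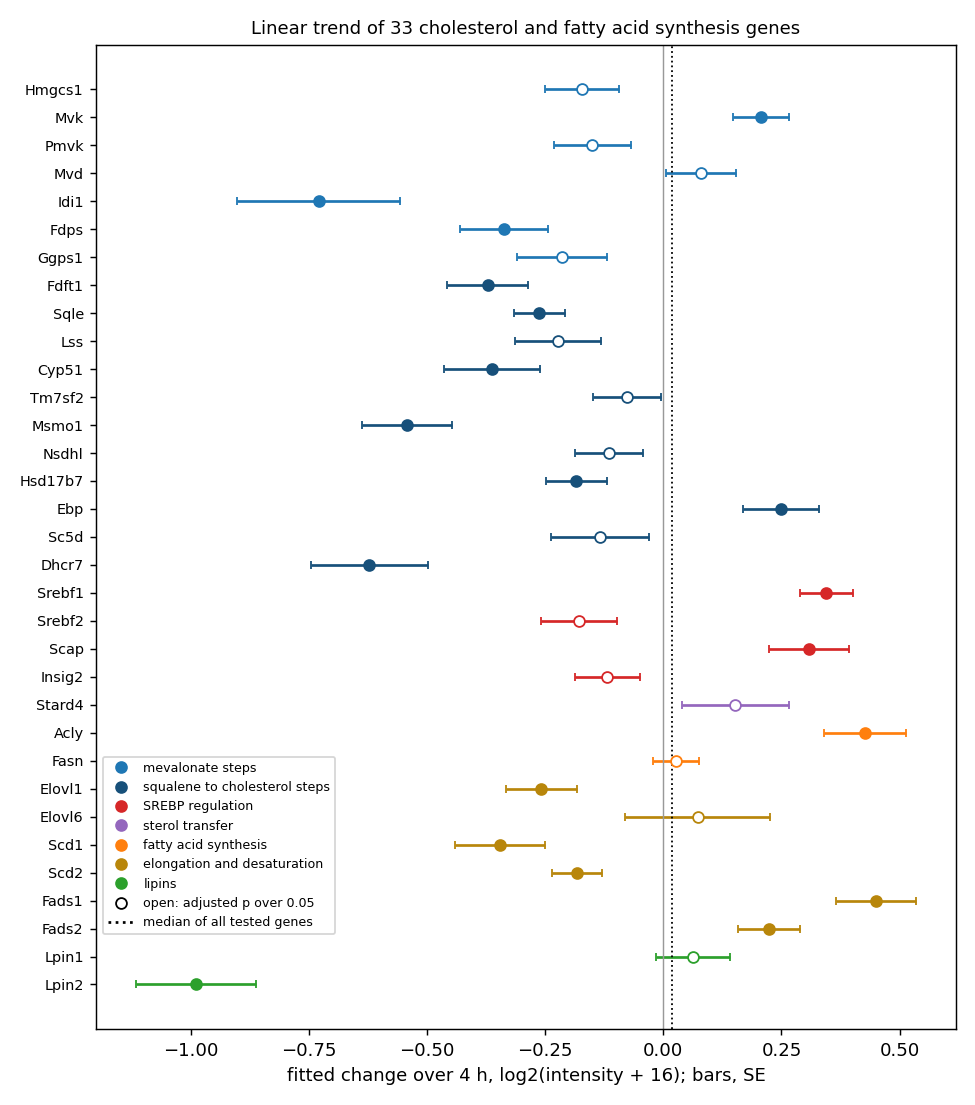
Fitted change over 4 h on the log2(intensity + 16) scale (horizontal axis) for each of the 33 tested genes (vertical axis), coloured by role. Points are the slope times 4 h, bars are its SE from 13 arrays, filled points have an adjusted p of at most 0.05, and the dotted line is the median of all 7436 tested genes. Lpin2 lies farthest to the left at -0.99 and Fads1 farthest to the right at 0.45.

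Of the mevalonate steps, which lead from acetyl-CoA to the isoprenoid diphosphates, 2 of 7 tested genes fell and 1 rose, beside 17.6% and 22.3% of all tested genes. Idi1, the isomerase that makes the dimethylallyl unit, read 2649 in untreated cells, 2474, 2755, 2030 and 2395 at 20, 40, 60 and 80 min, 2342, 2103, 2329 and 1970 from 100 to 160 min, and 2119, 1217, 1559 and 1935 from 180 to 240 min. The 200 and 220 min arrays were its lowest, and the early and late windows overlapped in part. Its fitted fall was 1.66-fold (-0.73 ± 0.172 log2 units, SE over 13 arrays; adjusted p = 0.00405). The value at 200 min was 0.661 times the mean of the arrays at 180 and 220 min. The dimmer probe set of Idi1 read 498 at 200 min, also its lowest value, and its trend had an adjusted p of 0.0728 among all probe sets. Without any 1 array the Idi1 trend kept its call (highest adjusted p = 0.0136).

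Fdps, which makes farnesyl diphosphate, ranged from 2893 to 3175 up to 60 min and from 2255 to 2800 in the 9 later arrays. These ranges did not overlap. Its level was 0.26 lower from 80 min on the log2 scale (SE 0.053; adjusted p = 0.00104), and its fall along the line was 1.26-fold (adjusted p = 0.0107). The call of the line was lost with the mean of its probe sets (adjusted p = 0.101), of which the other was dim (89.1 to 117.3). Mvk, mevalonate kinase, went the other way, from 360.2 in untreated cells to between 392.7 and 428.6 in the late window, a rise of 1.15-fold (0.21 ± 0.060, SE; adjusted p = 0.0132). Its call was lost without the 200 and 220 min arrays together (adjusted p = 0.0800).

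Hmgcs1, the cytosolic HMG-CoA synthase that commits acetyl-CoA to the pathway, read 3601 in untreated cells and 3206 at 240 min on the probe set used here, with a slope that missed the threshold (-0.17 over 4 h, adjusted p = 0.0884). That probe set is of the kind that can also match other transcripts. Those used for Fdft1 and Elovl1 are of the same kind, and those for Mvd, Ggps1 and Lss of a related kind. Fitted among all probe sets, 2 of its 4 probe sets fell: the next brightest by 0.41 in log2 units (adjusted p = 0.00185) and another by 0.30 (adjusted p = 0.00915). Pmvk, Mvd and Ggps1 (phosphomevalonate kinase, mevalonate diphosphate decarboxylase and geranylgeranyl diphosphate synthase) had changes of -0.15, 0.081 and -0.21 with adjusted p of 0.154, 0.412 and 0.0865.

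From squalene to cholesterol, 6 of 11 tested genes fell and 1 rose (17.6% and 22.3% of all tested genes did so). Dhcr7, the reductase of the last step, read 2514 in untreated cells, between 1929 and 2173 at 20 to 80 min, 2086 at 100 min, between 1423 and 1557 at 120 to 160 min and between 1513 and 1825 in the late window. All early arrays lay above all late arrays. The fall was 1.54-fold (-0.62 ± 0.124 log2 units, SE over 13 arrays; adjusted p = 0.00132), the 290th steepest of 7436. Msmo1, a methylsterol oxidase, read 3297 in untreated cells, 3046 and 3101 at 20 and 40 min, 2417 at 60 min and between 2052 and 2363 in the late window. It fell 1.46-fold (-0.54 ± 0.094, SE; adjusted p = 0.000582), and its value at 60 min was already within the range of the later arrays.

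Fdft1, squalene synthase, read between 2282 and 2776 up to 60 min and between 1837 and 2214 from 80 min, with no overlap, and fell 1.29-fold (adjusted p = 0.00348). The other bright probe set of Fdft1 changed by -0.45 log2 units (adjusted p = 0.00154 among all probe sets). Sqle, squalene epoxidase, fell 1.20-fold (adjusted p = 0.00147), from 2092 in untreated cells to between 1683 and 1757 in the late window. Cyp51, lanosterol demethylase, read 1580 in untreated cells, 1340 and 1504 at 20 and 40 min, 1121 at 60 min and between 1080 and 1265 from 80 min. Its fall was 1.29-fold (adjusted p = 0.0115), and the call was lost without the untreated array (adjusted p = 0.0716) and with the mean of its probe sets (adjusted p = 0.0695). The other probe sets of Cyp51 were dimmer, with mean intensities of 290.4 and 116.2 and trends of -0.043 and -0.037. Hsd17b7, a ketosteroid reductase, fell 1.14-fold (adjusted p = 0.0333) and lost its call without the untreated, 20, 40, 180 or 240 min array (highest adjusted p = 0.100).

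**Figure D2:**
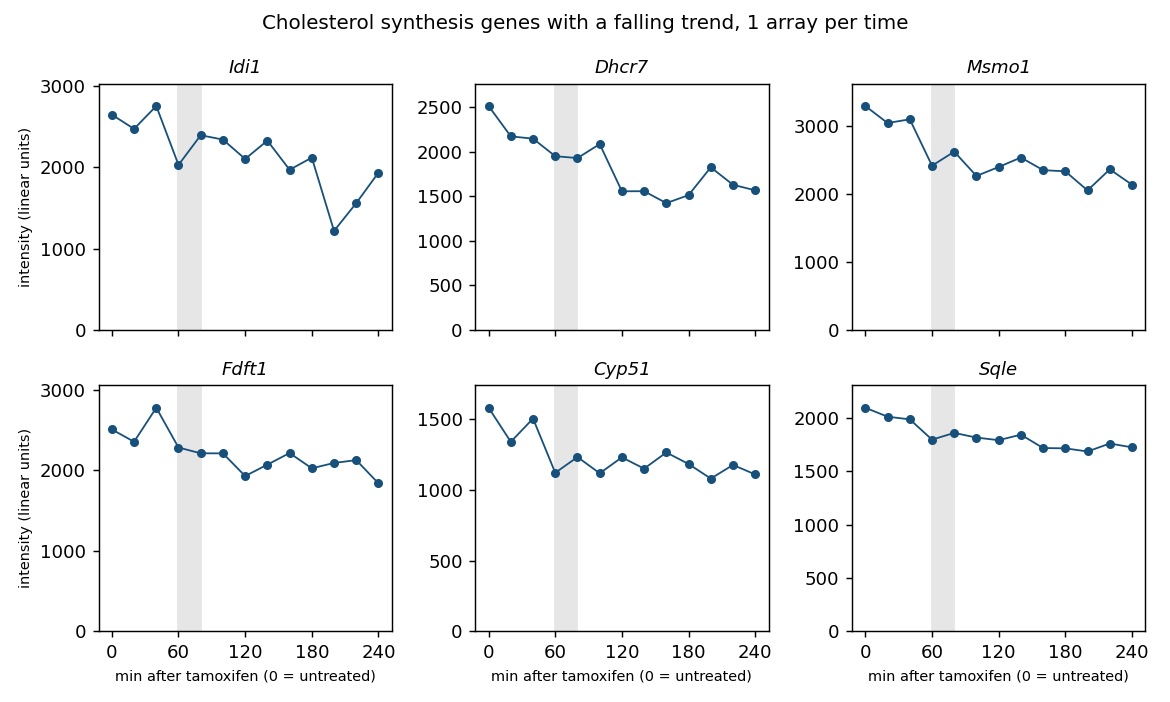
Intensity on a linear scale (vertical axes, from 0) against minutes after tamoxifen (horizontal axes, 0 is untreated) for 6 cholesterol synthesis genes with a falling trend. Each point is 1 array and the grey band marks 60 to 80 min. Idi1 dips to 1217 at 200 min, and all 6 genes are lower at 60 min than in any earlier array.

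Ebp, the sterol isomerase, rose. It read between 1041 and 1164 up to 60 min and between 1168 and 1358 from 80 min, with no overlap. The difference was 0.21 on the log2 scale (SE 0.043; adjusted p = 0.00125), and its rise along the line was 1.19-fold (adjusted p = 0.0224). The call of the line was lost without the untreated, 20 or 220 min array (highest adjusted p = 0.0711). Lss, lanosterol synthase, missed the threshold of the trend (adjusted p = 0.0628) but was 1.11-fold lower from 80 min (adjusted p = 0.0451). Without the untreated, 40, 80, 120, 180, 220 or 240 min array that call was lost (highest adjusted p = 0.225). The dimmer probe sets of Lss had trends of 0.10 and -0.058 over 4 h (adjusted p = 0.36 and 0.54 among all probe sets). The changes of Tm7sf2, Nsdhl and Sc5d, enzymes of the reduction, demethylation and desaturation steps, were -0.077, -0.11 and -0.13 over 4 h (adjusted p = 0.415, 0.223 and 0.318).

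Taken over both stretches of the pathway, 8 of 18 cholesterol enzyme genes fell (44.4%) and 2 rose (11.1%), beside the shares of 17.6% and 22.3% among all tested genes. The median slope of the 18 was -0.050 per hour on the log2 scale. The fall of this list as a whole was known from earlier work on the same arrays, so its count is not independent evidence of its direction.

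Among the regulators, 2 of 4 tested genes rose and 0 fell, against 22.3% rising among all tested genes. Srebf1 ranged from 626 to 634.4 up to 60 min, lay between 682.5 and 727.1 at 80 to 160 min, and 737.7, 739.8, 824.7 and 776.3 in the late window. No early array reached the level of a late one, and the rise was 1.27-fold (0.35 ± 0.057 log2 units, SE over 13 arrays; adjusted p = 0.000398). Scap, the sterol sensor, read between 1900 and 2142 up to 60 min and between 2117 and 2579 from 80 min, and rose 1.24-fold (adjusted p = 0.0102). Srebf2, the main SREBP gene of cholesterol synthesis, read between 820.1 and 870.2 up to 60 min and between 700.1 and 816 from 80 min, with no overlap. Its level was 1.12-fold lower from 80 min (-0.17 ± 0.045, SE; adjusted p = 0.00719), while its straight line missed the threshold (adjusted p = 0.0878). On its dimmer probe set the trend of Srebf2 was -0.040 over 4 h (adjusted p = 0.758 among all probe sets). Insig2, which retains SCAP, had a trend of -0.12 (adjusted p = 0.19), and 1 of its 3 probe sets fell, by 0.27 (adjusted p = 0.0169 among all probe sets).

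Stard4, a sterol transfer protein of the cytosol, read between 476.4 and 513.9 up to 60 min, between 594 and 619.2 from 80 to 180 min, and 500.9, 518.2 and 572.4 at 200, 220 and 240 min. It was 1.17-fold higher from 80 min (adjusted p = 0.00534) and had no trend past the threshold (adjusted p = 0.302).

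Of the enzymes that supply fatty acids, Acly, ATP citrate lyase, which makes cytosolic acetyl-CoA for both pathways, rose. It read 1602, 1601, 1481 and 1638 up to 60 min and between 1932 and 2079 in all 9 arrays from 80 min. The later arrays had an SD of 0.034 log2 units and a slope of 0.016 per hour from 80 to 240 min. That slope missed the threshold (adjusted p = 0.67), which is not a sign of constancy. The levels up to 60 min and from 80 min did not overlap. The difference was 1.27-fold (0.34 ± 0.033 log2 units, SE over 13 arrays; adjusted p = 2.47e-06), and the line rose 1.34-fold (adjusted p = 0.00144). Its 3 bright probe sets all rose, by 0.43, 0.38 and 0.39 over 4 h. Fasn, fatty acid synthase, read between 1863 and 2059 in all 13 arrays (0.027 ± 0.049 over 4 h, SE; adjusted p = 0.69). Acaca and Acss2, acetyl-CoA carboxylase and acetyl-CoA synthetase, were dim, with ranges of 121 to 153.9 and 124.3 to 143.2, and did not enter the test.

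Of the 6 desaturase and elongase genes, 2 rose and 3 fell, where 22.3% of all tested genes rose and 17.6% fell. Fads1 and Fads2 make polyunsaturated fatty acids. Fads1 read between 214.9 and 232.7 up to 60 min and between 271.4 and 308.3 from 80 min, and rose 1.37-fold (0.45 ± 0.085 log2 units, SE over 13 arrays; adjusted p = 0.000977). Fads2 read between 553.6 and 625.4 up to 60 min and between 569.6 and 717.4 later. It rose 1.17-fold (adjusted p = 0.0137), a call lost without the 220 min array (adjusted p = 0.0520). The dimmer probe set of Fads2 had a trend of 0.19 over 4 h that did not pass (adjusted p = 0.327 among all probe sets).

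Scd1 and Scd2, the stearoyl-CoA desaturases that make monounsaturated fatty acids, fell 1.27-fold and 1.13-fold (adjusted p = 0.00984 and 0.0135). Scd1 read 1546 in untreated cells and between 1209 and 1392 in the late window, and Scd2 read 4673 and between 4013 and 4215. The call of Scd2 was lost without the untreated array (adjusted p = 0.0553) and with the mean of its probe sets (adjusted p = 0.223), and the dimmer probe sets of both genes did not pass. Elovl1, an elongase of very long chain fatty acids, fell 1.20-fold (adjusted p = 0.013), and its 3 probe sets all fell, by 0.26, 0.28 and 0.24 over 4 h. Without the 20 min array the call was lost (adjusted p = 0.0515). Elovl6, which elongates palmitate, read 198.5 and 183.8 at 200 and 220 min against 255 and 260 at 180 and 240 min, and had no trend past the threshold (adjusted p = 0.736).

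**Figure D3:**
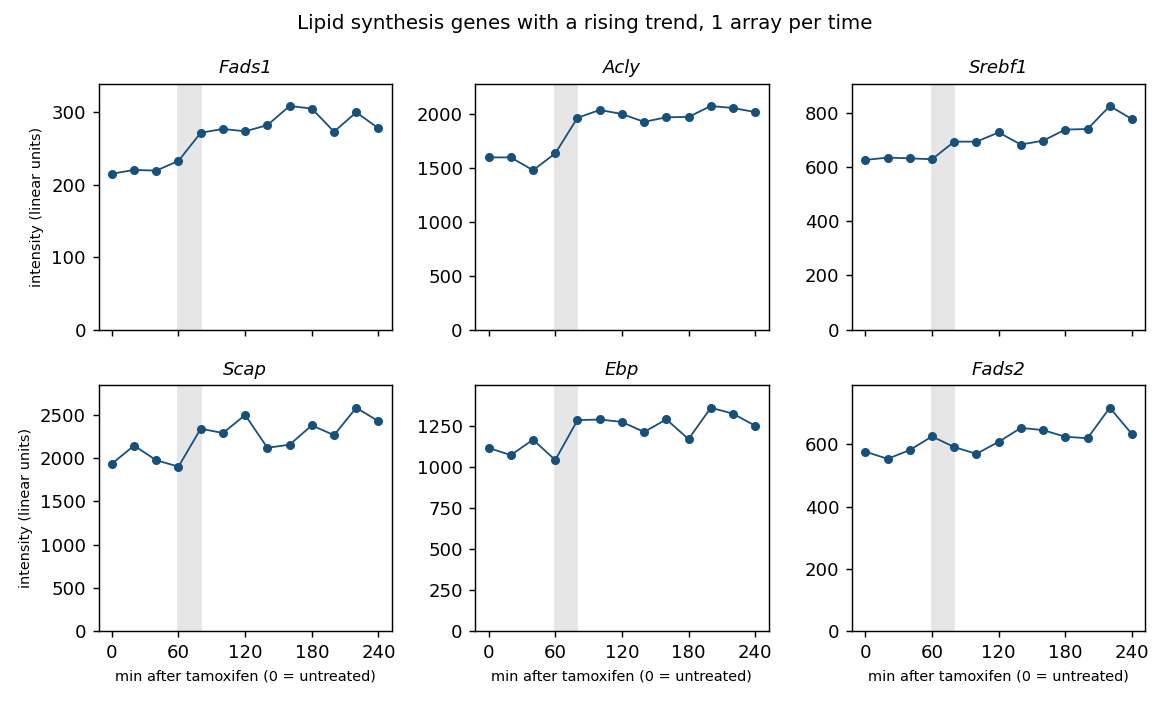
Intensity on a linear scale (vertical axes, from 0) against minutes after tamoxifen (horizontal axes, 0 is untreated) for 6 genes with a rising trend. Each point is 1 array and the grey band marks 60 to 80 min. Acly lies between 1481 and 1638 up to 60 min and between 1932 and 2079 afterwards, and Fads1 and Ebp also have no overlap across the band.

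The lipins are phosphatidate phosphatases that make diacylglycerol, and they also act with nuclear receptors. Lpin2 had the steepest change of the 33 genes. It read 1022 in untreated cells and 858, 1303, 930.7 and 861 at 20, 40, 60 and 80 min, then 816.9, 725.4, 681 and 645.1 from 100 to 160 min and 620, 610.3, 585.8 and 552.3 from 180 to 240 min. On this brightest probe set, every array after the high one at 40 min read lower than the one before it. The fall was 1.98-fold over 4 h (log2 change -0.99 ± 0.127, SE over 13 arrays; adjusted p = 0.000128), the 75th steepest of 7436. Its dimmer probe sets also fell, by 0.78 and 0.60 over 4 h (adjusted p = 0.00107 and 0.00079 among all probe sets). Their falls were not unbroken: from 180 to 200 min they went from 209.4 to 247.2 and from 210.1 to 229.7.

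Lpin2 was also the single member with a trend within the 9 arrays from 80 to 240 min, where 5 of all 7436 tested genes (0.0672%) had one and 0.0538% had a falling one. Its slope there was -0.23 ± 0.0243 log2 units per hour (SE over 9 arrays; adjusted p = 0.0102), which amounts to 1.52-fold over the 160 min. This call was lost without the 80 min array (slope -0.21, adjusted p = 0.218) and with the mean of its 3 probe sets (slope -0.15, adjusted p = 0.0563). For the other 32 members the test is a miss and not a sign of constancy. Lpin1 did not pass on its brighter probe set (0.063 over 4 h, adjusted p = 0.554), and its dimmer probe set rose by 0.40 (adjusted p = 0.0196 among all probe sets).

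**Figure D4:**
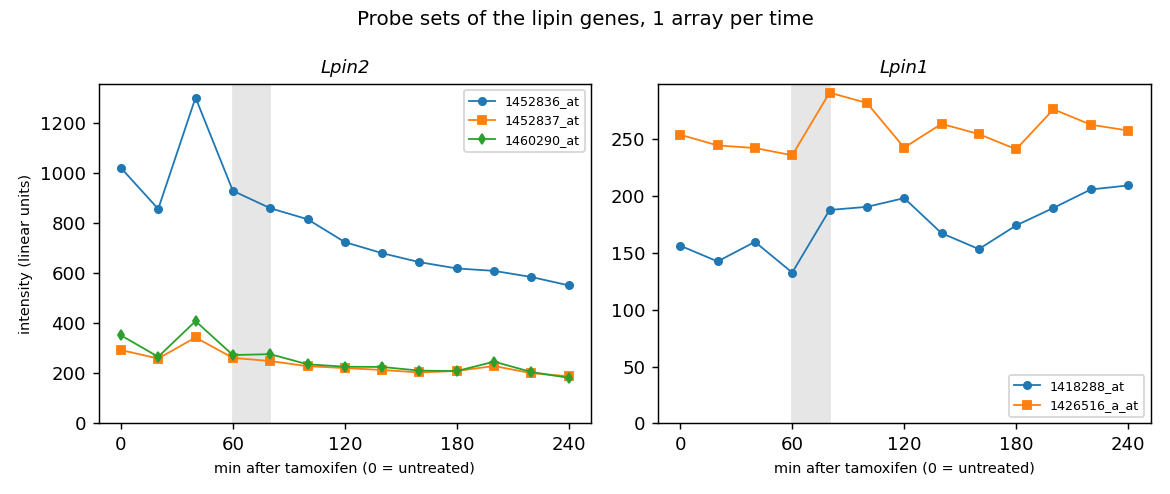
Intensity on a linear scale (vertical axes, from 0) against minutes after tamoxifen (horizontal axes, 0 is untreated) for the 3 probe sets of Lpin2 (left) and the 2 of Lpin1 (right), 1 array per point, with 60 to 80 min in grey. All probe sets of Lpin2 are highest at 40 min, and the brightest falls from 861 at 80 min to 552.3 at 240 min.

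The timing was then compared between a straight line and a single step between the 60 and 80 min arrays, a break known from earlier work on these data. The step called 18 of the 33 genes, 12 lower and 6 higher from 80 min, against 41.7% of all tested genes in either direction, 20.1% lower and 21.7% higher. In 3 genes (Fdps, Fdft1 and Srebf2) all arrays up to 60 min lay above all later ones (11% of all tested genes), and in 4 (Acly, Ebp, Srebf1 and Fads1) all lay below (11.7%). The step added Lss, Srebf2 and Stard4 to the genes with a trend, and 13 of the 18 calls were kept whichever array was left out. Besides Hsd17b7 and Lss, those lost in some omission were Cyp51, Scd1 and Elovl1 (highest adjusted p = 0.0939, 0.106 and 0.0554). Of the 33 tested genes, 15 (45.5%) were fitted more closely by the step than by the line, against 53.2% of all tested genes. Of the 19 genes with a trend, 6 (Fdps, Fdft1, Ebp, Scap, Acly and Fads1) were closer to the step and 13 to the line. Those 19 were picked by the line test, so their count leans towards the line. Among the cholesterol enzymes 7 of 18 were closer to the step, beside 53.2% of all tested genes. With that step as a block beside the line, 0 of the 33 slopes and 1 of all 7436 slopes passed with limma. This fit sets the members apart in no way. A late array is late on both counts, so that fit separates step and slope poorly. A spline of time with 3 degrees of freedom called 11 of the 33 genes against 24.9% of all tested genes, and all 11 also had a linear trend. Without the untreated array the spline called 6.

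A contrast of the late window with the early window left out the untreated array. The early window spans the break between 60 and 80 min, and change inside a window counts as spread. A missing call is therefore not a sign of constancy: Ebp was called by the step but not here (adjusted p = 0.0937). The contrast called 12 of the 33 genes, against 26.2% of all tested genes. Lower late were Lpin2, Idi1, Dhcr7, Msmo1, Fdft1, Fdps and Sqle (7 genes, against 11.1% of all tested genes), and higher late were Acly, Fads1, Srebf1, Scap and Mvk (5 genes, against 15.1%). Lpin2 was at 9.95 ± 0.282 early and 9.25 ± 0.072 late (SD over 4 arrays each; adjusted p = 0.00355) and Msmo1 at 11.45 ± 0.172 and 11.13 ± 0.098 (adjusted p = 0.0102). Srebf1 was at 9.37 ± 0.066 early and 9.62 ± 0.074 late (adjusted p = 0.0065). In 5 genes all early arrays lay above all late ones (8.57% of all tested genes), and in 4 all early arrays lay below (13.7%). Leaving out the 20 or the 40 min array gave 5 calls, leaving out the 220 or the 240 min array gave 7, and leaving out 200 and 220 min together gave 2. The calls of Lpin2, Msmo1, Acly, Fads1 and Srebf1 were kept whichever single array was left out. Of all genes called in this contrast 57.7% were higher late, and 43.9% when arrays were centred on their medians, where 3 members were higher and 8 lower.

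Of 68 other tested genes of lipid metabolism, 17 rose and 12 fell along the line, shares near those of all tested genes (22.3% and 17.6%). The counts of the smaller lists below are read beside the same shares of all genes. Of 10 tested genes of fatty acid oxidation and lipolysis, 4 rose and 1 fell. Cpt1a and Cpt2, the carnitine palmitoyltransferases that bring fatty acids into mitochondria, rose 1.63-fold and 1.34-fold, and the acyl-CoA dehydrogenase gene Acadm rose 1.38-fold (adjusted p = 0.00088, 0.000164 and 0.000585). Lipe, hormone-sensitive lipase, fell 1.33-fold (adjusted p = 0.00133). Of 17 genes of fatty acid supply, elongation and activation, 5 rose and 4 fell. The elongase genes Elovl7 and Elovl4, the latter needed for the ultra-long chain lipids of the skin barrier, fell 1.83-fold and 1.54-fold (adjusted p = 0.00018 and 0.000164), Mid1ip1, an activator of acetyl-CoA carboxylase, fell 1.30-fold, and Elovl5 rose 1.27-fold.

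Of 14 glycerolipid and phospholipid genes, 3 fell and 0 rose, while 17.6% of all tested genes fell and 22.3% rose. Chka, choline kinase, fell 2.07-fold (adjusted p = 0.000131), Dgat2 1.21-fold and Cept1 1.19-fold. Of 10 isoprenoid and further sterol genes, 3 rose and 2 fell. Sult2b1, the cholesterol sulfotransferase of epidermis, fell 1.64-fold (adjusted p = 0.000225) and Nus1 1.25-fold, while Acat1, the mitochondrial thiolase, and Lbr, a sterol reductase of the nuclear envelope, rose 1.31-fold and 1.28-fold. Of 11 genes of sterol export, uptake and storage, 3 rose and 2 fell: Cav1, caveolin, rose 1.52-fold (adjusted p = 0.00153) and Mylip, which marks lipoprotein receptors for breakdown, 1.20-fold, while the receptor genes Vldlr and Lrp6 fell 1.28-fold and 1.20-fold. Of 6 genes of SREBP processing and turnover, 2 rose: Sec24d, a coat protein of vesicles leaving the endoplasmic reticulum, 1.42-fold (adjusted p = 0.000129) and Rnf145, a ubiquitin ligase, 1.22-fold (adjusted p = 0.0432). The rise of Rnf145 lost its call in 9 of 13 omissions of 1 array, and its slope turned to -0.041 per hour with the step as a block. The calls of Rnf145, Lrp6, Nus1, Dgat2 and Cept1 were lost without some arrays, with highest adjusted p of 0.103 (20 min left out), 0.162 (220 min), 0.127 (220 min), 0.118 (240 min) and 0.103 (untreated).

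Markers of other cells that make much lipid were followed beside these genes. Of 10 sebocyte markers 6 were on the arrays and 2 were tested. Mgst1, which many cells express, rose 1.67-fold (adjusted p = 0.00153). Scd3, the other tested one, went the other way and missed the threshold (-0.23 over 4 h, adjusted p = 0.0829). The melanocortin receptor gene Mc5r lay at percentile 21.1 of mean level. The summed intensity of the 6 was between 935.1 and 1146 in the early window and between 1152 and 1231 in the late window. Without Mgst1 the sum of the other 5 was 643.7 to 793.5 early and 623.4 to 749.2 late, with overlap. Of 11 adipocyte markers 8 were on the arrays and 3 were tested. Fabp4 rose 2.04-fold along the line (adjusted p = 0.0325) and Lpl fell 1.45-fold (adjusted p = 0.000605). Fabp4 read between 483.5 and 666.6 up to 60 min and between 953.4 and 1553 from 80 min. These ranges did not overlap, and the step was 2.08-fold (adjusted p = 1.57e-05). The sums were 1721 to 2617 early, the 80 min array included, and 2246 to 2411 late. Fabp4, Lpl and Slc2a4 lay at percentiles 79.8, 61.9 and 44.4, and the hormone genes Adipoq and Lep at 3.81 and 2.32. Of the tested fibroblast (2), endothelial and muscle (2), melanocyte (6) and immune (2) markers, Fbln1 and Acta2 rose and Mitf and Cd68 fell. The melanocyte gene Dct lay at percentile 93.1. No marker was at 0 in any array, but Lep, at percentile 2.32, also read at least 72.5, so this does not show detection. The part of such cells in the changes of the lipid genes was not tested.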

How the data were processed

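Total RNA was extracted with Trizol and labelled as biotinylated cRNA by the array maker's protocol, per the labels' protocols. The authors deposited intensities, which are linear and not logged, for 22690 probe sets in 13 arrays. Which software summarised and scaled them was not given in the sources used. If arrays were scaled to a common level, change shared by most genes would be removed, and this was not tested.

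Values were used as log2(intensity + 16). The platform table gave 1 gene to 20393 probe sets, several to 691 and none to 1606. Symbols of 20364 were updated through a RefSeq table of GRCm38.p6. A filter at the 40th percentile of mean log2 level (7.829) left 7436 genes. Precision is set by how many arrays there are, and residuals about a line had a median SD of 0.0873.

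The models were fitted with limma (version 3.58.1, under R 4.3.3), moderated by eBayes with a mean-variance trend. Tests were two-sided, with Benjamini-Hochberg adjustment over all genes tested and a threshold of 0.05: a straight line of time, the slope from 80 to 240 min, late against early windows in a fit with 4 levels, a step between 60 and 80 min, and a spline. In the windows, neighbouring times stand in for replicates. Single probe sets were fitted among all 20393. Steps were tested on simulated data. The text names all 37 members and, per other list, up to 4 genes past the trend threshold with the largest slope. Members and lists were chosen with earlier results of these data known. Alternatives changed the filter, pseudocount, scaling, probe sets, moderation, array weights, spline flexibility and arrays used.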

Additional observations from a re-analysis of the deposited data

How the results depend on the processing

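The counts of members with a trend (19) and with a step (18) stayed within 1.5 times under every alternative but one: with the step as a block beside the line, 0 slopes passed. Leaving out 1 array gave 15 to 21 and 14 to 20 calls. From 80 to 240 min, the 1 call became 0 with the mean of all probe sets, and omissions gave 0 to 1. Late against early called 12 members, 24 with array weights and 2 without the 200 and 220 min arrays, and 5 to 14 with 1 array left out. The spline called 11, 26 with array weights, 18 with 2 degrees of freedom, and 6 to 16 with 1 array left out. 1 direction turned: the slope of Rnf145 was -0.041 per hour with the step as a block. The cause was not tested. With the mean of all probe sets the trends of Cyp51, Fdps and Scd2 lost their calls (adjusted p = 0.0695, 0.101 and 0.223). Over all genes, the trend called between 1 and 3776 genes (1 with the step as a block), the step between 2362 and 3751, the slope from 80 to 240 min called between 0 and 237 genes, the windows between 634 and 3550, and the spline between 1245 and 4081. No paired analysis was possible because each time has 1 array. Signal limits Acss2 and Acaca, which were too dim to test.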

Other observations

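The 60 min array was low for the cholesterol enzymes. It was the lowest of the first 4 arrays in 13 of the 18 (and in 21 of the 33 tested members), against 37.3% of all tested genes. The median difference of the 60 min array from the mean of the untreated, 20 and 40 min arrays was -0.15 on the log2 scale among the 18 and -0.015 among all tested genes. It was -0.40 for Sc5d, -0.39 for Cyp51, -0.38 for Msmo1 and -0.37 for Idi1. Sc5d read 1104, 996.5 and 1017 in the first 3 arrays, 782.7 at 60 min and 1002 at 80 min, so its low value was not kept. This pattern was noticed in the data, rests on 1 array, and was not tested.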
